A study of Homo sapiens with 12 samples.

Results

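The genes of sterol and fatty acid synthesis were examined in RNA from HEK293T cells, a human embryonic kidney line that the sample labels name HEK293T and, in the growth conditions, HEK293. The 33 genes are a fixed list of symbols covering cholesterol synthesis, the SREBP factors and their ER partners, sterol transport and fatty acid synthesis. All 33 were found among the 23292 symbols in the first column of the deposited tables. Wild-type cells were exposed for 6 h to DMSO (Veh), or to 10 µM of AA263, AA263yne or AA263-5, with 3 samples in each of the 4 groups and 12 in all. Every group was the same line at the same time point and differed by the compound added. AA263 is known as a compound that activates ATF6, a sensor of stress in the endoplasmic reticulum (ER), and the other compounds are its analogs.

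The level of a gene is given here as the mean that the authors deposited, taken over all 12 samples after scaling each sample by its size factor. This mean normalized value is identical in the 3 tables, to a largest difference of 0. It holds treated and untreated cells together and has no replicate spread, so the values describe how strongly a gene was expressed across the experiment. The effect of each compound on these genes was not analysed here. The values sum to 36.6 M over all symbols. Depth per sample was not analysed here, so no counting interval or replicate error can be given, and neighbours in an order of levels cannot be told apart by their error. Of 7 transcripts widely seen in this line, 5 were at 1000 or more (*VIM* at 18797), while *LHX1* was at 85.8 and *PAX2* at 27.7. Of 10 markers of liver, blood, muscle and fat, 8 are listed and the highest was at 24.4.

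Cholesterol is built in the cytosol and the ER membrane. Acetyl units pass through mevalonate to isoprenoids, a pair of which is joined to squalene, and squalene is closed into a ring and trimmed to cholesterol. Most enzymes of this route, and those that make fatty acids, are under the control of the SREBP transcription factors. These are held in the ER by SCAP and the INSIG proteins when sterols are plentiful and are otherwise carried to the Golgi, where the proteases that also cleave ATF6 release their active part.

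The promoters of the genes were read first, since they carry the sequences through which SREBP is known to act. RefSeq promoters on GRCh38.p14, each with 250 bases before a start site and 50 after it, matched 29 of the 33 genes in 39 promoters. The genes with no entry are *ACAT2*, *FDFT1*, *SQLE* and *FASN*. On both strands 4 motifs were searched, namely the sterol regulatory element TCACNCCAC, the palindrome TCACGTGA that SREBP1 can also bind, the box CCAAT that NF-Y binds, and the GC box GGGCGG that Sp1 binds. NF-Y and Sp1 are known partners of SREBP at many of its target promoters.

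The sterol regulatory element in these letters was found in 1 of the 29 genes, *SREBF2*, which encodes SREBP2 itself. Only exact letters within 300 bases were searched, so the other genes may hold such an element in other letters or elsewhere. The palindrome was found in 1 gene, *INSIG1*, whose protein retains SCAP in the ER. In the promoter table as a whole, 1.39% of 27305 genes held the first and 1.18% the second. Among the 11173 genes in it that were measured at 10 or more, 1.47% held the first and 2.11% the second. A single gene of 29 (3.45%) is too few to set apart from these shares. A CCAAT box lay in a promoter of 21 genes (72.4%), against 39.7% of all genes and 42.9% of those at 10 or more. Counted by promoter, these were 64.1% of the 39 and 34.6% of all 35116. A GC box lay in 28 genes (96.6%), against 48.3% of all genes and 76.1% of those at 10 or more. Both boxes together lay in 20 genes (69.0%), against 19.2% and 33.2%. Of the 29 genes, 8 had 3 or more CCAAT boxes in a promoter (27.6%), against 3.92% of all genes and 5.44% of those at 10 or more. These were *MVK* and *NSDHL* with 5 boxes each, *MSMO1* with 4, and *EBP*, *FDPS*, *IDI1*, *MVD* and *TMEM97* with 3 each. In *IDI1*, the boxes that begin 132 and 129 bases before the start site overlap, being read on opposite strands. *IDI1* thus reaches 3 only with both counted. All of these 8 genes code for enzymes of cholesterol synthesis except *TMEM97*, which codes for the sigma-2 receptor, an ER protein that binds NPC1. These shares are descriptions of reference sequence, with no test, and do not show binding.

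**Figure D1:**
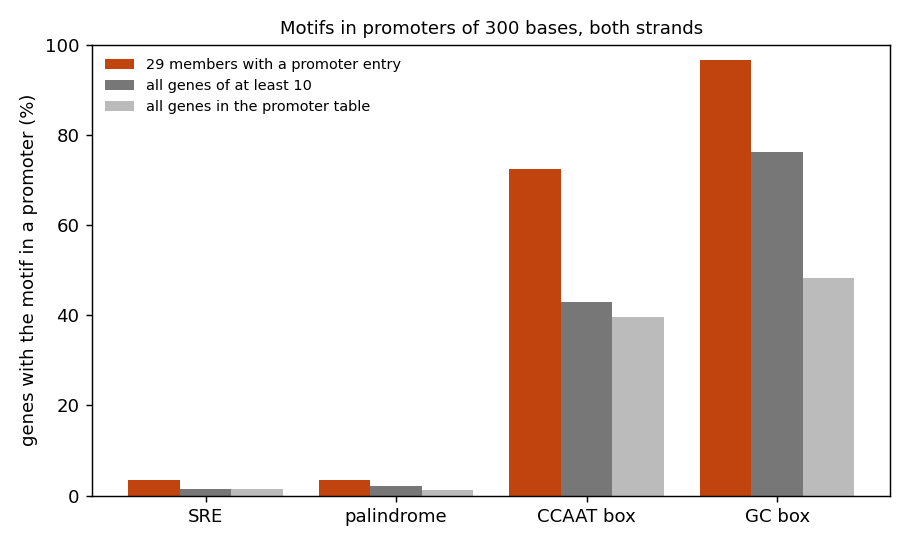
Share of genes with each of 4 motifs in at least 1 promoter of 300 bases, in percent, for the 29 genes with a promoter entry (first bar of each group), for the genes measured at 10 or more (middle bar) and for all genes in the promoter table (last bar). The CCAAT box reaches 72.4% against 42.9% and 39.7%, and the GC box 96.6% against 76.1% and 48.3%, while the sterol regulatory element and the palindrome are each found in 1 of the 29 genes.

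The stretches that hold the rare motifs, and the densest run of CCAAT boxes in *NSDHL*, are given 5′ to 3′ on the plus strand of GRCh38.p14, with the motifs in capitals. In *SREBF2*, at chr22:41832932-41833020, the capitals mark the sterol regulatory element, 133 to 125 bases before the start site, and then an inverted CCAAT box. In *INSIG1*, at chr7:155297811-155297840, they mark the palindrome, 56 to 49 bases before the start site. GENCODE 44 places all 30 of these bases inside an exon of a transcript that begins further upstream. In *NSDHL*, at chrX:152830915-152830993, they mark 4 CCAAT boxes, of which the second and the third overlap in a single run of capitals, being read on opposite strands, and 27 of the 79 bases lie in an exon of GENCODE 44.
SREBF2: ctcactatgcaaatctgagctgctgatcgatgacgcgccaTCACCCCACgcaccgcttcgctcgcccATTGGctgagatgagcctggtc
INSIG1: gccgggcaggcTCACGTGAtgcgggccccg
NSDHL: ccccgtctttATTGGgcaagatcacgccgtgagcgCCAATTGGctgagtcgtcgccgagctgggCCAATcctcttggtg

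Most of the genes were well expressed. All 33 were at 100 or more, and 26 (78.8%) at 1000 or more, a level reached by 25.9% of all listed symbols and by 38.6% of the 15638 symbols at 10 or more. Their median was 2593, against 571 for those symbols. Read counts grow with transcript length, but it is not settled whether the deposited values were already divided by length, and they did not rise with it across 12992 genes (Spearman rho -0.011). Levels were therefore compared between genes both as deposited and after division by a length in kilobases. The planned length was the median over a gene's transcripts in GENCODE 44, but many annotated transcripts are fragments, so that the reference transcript chosen for each gene (MANE Select) was longer by a median factor of 2.29 and, for *FASN*, by 20.0. The longest transcript and the coding length were used as well. Together with the deposited value itself, this gives 5 scales, and an order is stated below only where all of them share it or with the exception named. On the planned scale the median of the 33 genes was at the 82.2 percentile mark of all genes at 10 or more, and on the MANE Select scale at 75.1. On all 5 scales, 29 genes lay above the 50th percentile. *INSIG2* and *STARD4* lay below it on all 5, and *MVK* and *ELOVL6* on some. Above the 90th percentile on all 5 scales were *FDPS*, *FDFT1*, *SQLE*, *ACLY* and *FASN*.

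**Figure D2:**
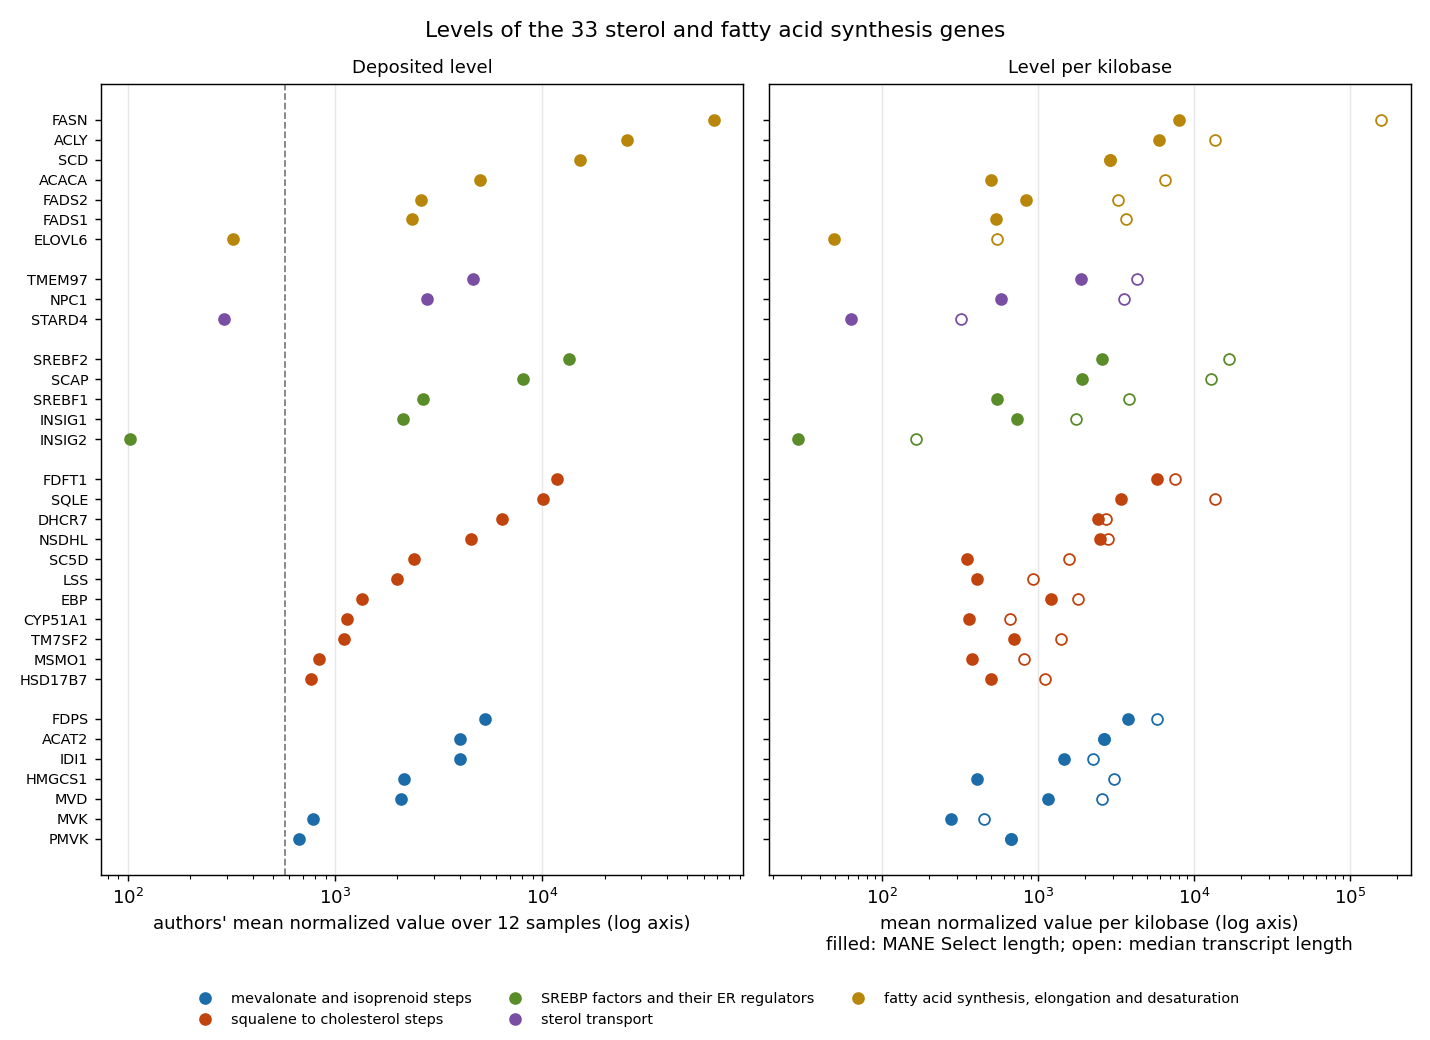
Level of each of the 33 genes by role, as the authors' mean normalized value over 12 samples (left, log axis, with the median of all genes of at least 10 as a dashed line) and per kilobase (right, log axis) for the MANE Select transcript (filled) and the median transcript length (open). Each point is 1 gene and has no error bar, since the mean is given without a spread. Only *INSIG2*, *STARD4* and *ELOVL6* lie left of the dashed line at 571, and *FASN* is the rightmost on the left panel at 67184.

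The 3 highest deposited values of the 33 were those of fatty acid genes. *FASN*, which encodes fatty acid synthase, had a mean normalized value of 67184 and ranked 38th of all symbols. It lies on chromosome 17 of GRCh38 from 82078338 to 82098294, and its reference transcript has 43 exons. *ACLY*, whose enzyme supplies cytosolic acetyl-CoA, was at 25612, and *SCD*, the delta-9 desaturase, at 15197. These 3 genes made up 50.5% of the summed value of all 33, and *FASN* alone 31.4%. *ACACA*, the carboxylase that makes malonyl-CoA for *FASN*, was at 5020. *FADS2* and *FADS1*, the desaturases of polyunsaturated fatty acids, were at 2593 and 2343. *ELOVL6*, the elongase of long saturated chains, was at 322.
Per kilobase of the MANE Select transcript, *FASN* was at 7938, *ACLY* at 5966, *SCD* at 2897, *FADS2* at 839, *FADS1* at 537, *ACACA* at 501 and *ELOVL6* at 48.9. *FASN* was higher than *ACLY* on every scale, by 1.15- to 11.6-fold, and higher than *ACACA* by 12.7- to 24.4-fold. *FASN* and *ACLY* were among the 5 highest genes on all 5 scales, while *SCD* ranged from the 1st place on coding length to the 15th on median transcript length. The order of *FADS1* and *FADS2* depended on the length, with a ratio of *FADS1* to *FADS2* of 0.640 to 1.13. They lie on opposite strands of chromosome 11 and share 490 exon bases, which is 4.79% of those of *FADS1*.

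In the mevalonate part, which turns acetyl-CoA into isoprenoids, values lay within a narrower range, 7.94-fold from lowest to highest against 209-fold for the fatty acid genes. *FDPS*, which makes farnesyl diphosphate, had a mean normalized value of 5306. *ACAT2*, the cytosolic thiolase at the entry, was at 4028, and *IDI1*, the isopentenyl diphosphate isomerase, at 3988. *HMGCS1*, which makes HMG-CoA, was at 2157 and *MVD*, the decarboxylase, at 2084. *MVK* and *PMVK*, the kinases of the route, were at 779 and 669.
Per kilobase of the MANE Select transcript, *FDPS* was at 3745 and *MVK* at 275. The ratio of *FDPS* to *MVK* was 6.44 to 13.9 over the 5 scales, and that of *FDPS* to *PMVK* 3.64 to 8.72. *FDPS* ranked between 4th and 9th of the 33 genes and *MVK* between 28th and 31st. *PMVK*, with a short transcript of 1002 bases, moved from rank 30 on the deposited scale to 19 on the MANE Select scale.

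The steps from squalene to cholesterol began with the 2 highest genes of the group. *FDFT1*, squalene synthase, had a mean normalized value of 11759, and *SQLE*, squalene epoxidase and a rate-limiting step of the route, one of 10030. *LSS*, which closes the ring to lanosterol, was at 1992. After it came *CYP51A1* at 1144 and *TM7SF2* at 1107, the demethylase and the reductase that act on lanosterol and its product. *MSMO1*, *NSDHL* and *HSD17B7*, which together remove the C4 methyl groups, were at 838, 4544 and 763. *EBP*, the sterol isomerase, was at 1354, *SC5D*, the desaturase, at 2399, and *DHCR7*, the last reductase, at 6374.
*FDFT1* was higher than *LSS* on each scale, by 5.90- to 14.2-fold, and *SQLE* was higher than *LSS* by 5.03- to 14.6-fold and than *CYP51A1* by 7.78- to 20.5-fold. *FDFT1* and *SQLE* had no fixed order between them, with a ratio of 0.557 to 1.71. Of the 3 genes of C4 demethylation, *NSDHL* ranked between 7th and 16th of the 33 genes, while *MSMO1* ranked between 22nd and 27th and *HSD17B7* between 24th and 29th. *DHCR7* was higher than *SC5D* on each scale, by 1.61- to 6.93-fold.

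Among the regulators, each paralog pair was unequal in the same direction on all scales. *SREBF2*, the factor mainly tied to cholesterol genes, had a mean normalized value of 13395, and *SREBF1*, mainly tied to fatty acid genes, one of 2666. Per length, *SREBF1* was below *SREBF2* by a difference of -2.14 on the log2 scale with the median transcript length and of -2.23 with the MANE Select transcript. *SREBF2* lies on chromosome 22 from 41833105 to 41907306, and *SREBF1* on chromosome 17 from 17810399 to 17837002. *SCAP*, the sterol sensor that escorts both, was at 8114.
*INSIG1* was at 2126 and *INSIG2* at 103, the lowest of the 33 genes on all 5 scales. Per length, *INSIG1* was above *INSIG2* by 3.41 on the log2 scale with the median transcript length and by 4.67 with the MANE Select transcript. *SCAP* exceeded *INSIG2* by 13.9- to 79.1-fold. Its ratio to *INSIG1* ran from 0.827 to 7.34, below 1 on coding length only.

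Of the sterol transport genes, *TMEM97* had a mean normalized value of 4624 and *NPC1*, which exports cholesterol from lysosomes, one of 2764. *STARD4*, a cytosolic carrier of cholesterol, was at 291. *TMEM97* was higher than *STARD4* by 13.4- to 29.9-fold over the 5 scales, and *NPC1* by 1.52- to 11.0-fold. *STARD4*, *INSIG2* and *ELOVL6* were among the 5 lowest genes on every scale.

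**Figure D3:**
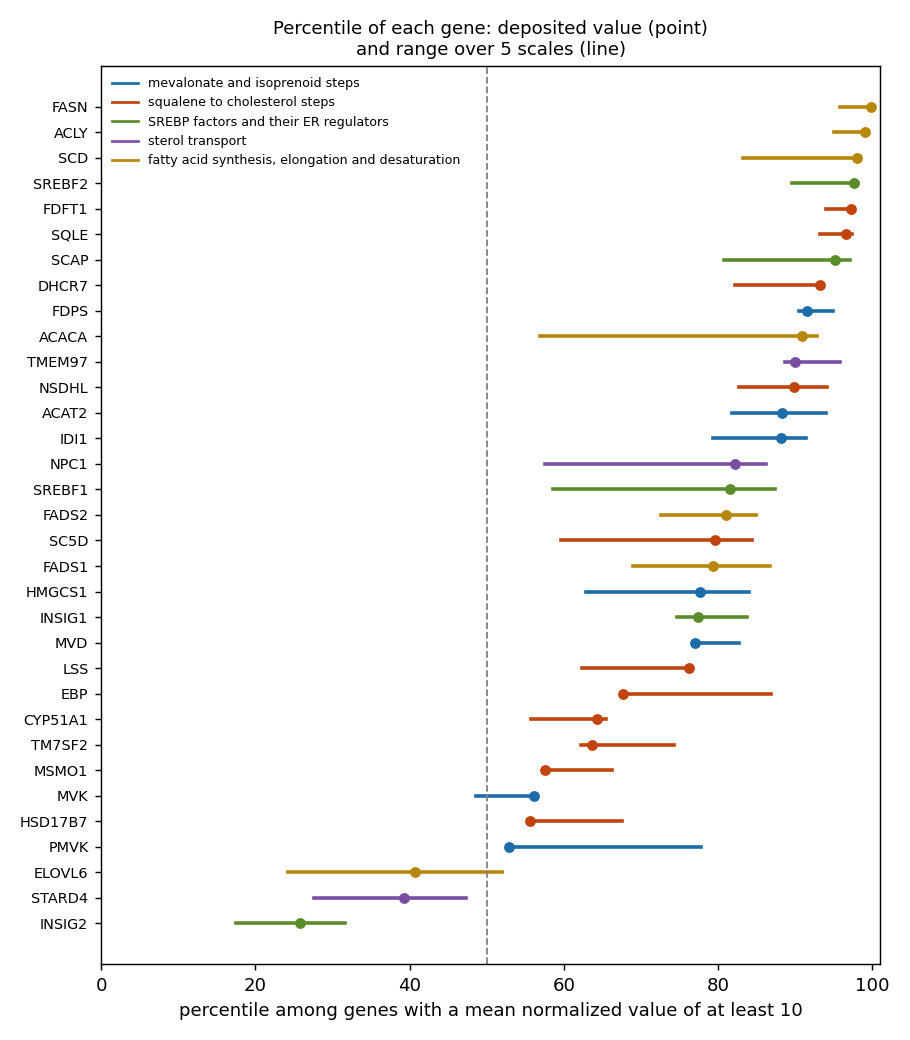
Percentile of each of the 33 genes among all genes at 10 or more, for the deposited value (point) and as a range over 5 scales, which are the deposited value and 4 lengths (line). The dashed line marks the 50th percentile. *INSIG2* (17.5 to 31.7) and *STARD4* (27.6 to 47.3) stay below it, *FASN* (95.8 to 99.9) and *ACLY* (95.1 to 99.0) stay near the top, and *ACACA* (56.9 to 92.8) has one of the wide ranges.

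Counted by role, the fatty acid genes held 55.4% of the summed deposited value of the 33 genes, the squalene to cholesterol steps 19.8%, the SREBP factors and their regulators 12.4%, the mevalonate steps 8.90% and sterol transport 3.59%. These shares are not divided by length. On median transcript length, the median level per kilobase was 3828 for the SREBP factors and regulators, 3662 for fatty acid synthesis, 3534 for sterol transport, 2576 for the mevalonate steps and 1574 for the steps from squalene. On the MANE Select transcript the same medians were 731, 839, 581, 1158 and 702. The order of the role groups thus changed with the length.

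A further list of sterol and fatty acid genes outside the 33 had a lower median. Of its 49 genes, 44 are listed, 24 of these (54.5%) were at 1000 or more, and 2 were under 10. Their median mean normalized value was 1242. Per kilobase of the median transcript length, *LBR*, which shares the sterol reductase activity of *TM7SF2*, was highest at 14378, followed by *MBTPS1*, the site-1 protease of SREBP and ATF6, at 10575 and *TECR*, a reductase of fatty acid elongation, at 8963. Per kilobase of the MANE Select transcript their order changed, with *TECR* at 6126, *LBR* at 2823 and *MBTPS1* at 1435. Among the lowest were *ACSL5*, which activates long-chain fatty acids, at 0.564 and *ABCA1*, which exports cholesterol from the cell, at 20.2.

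Reads of a neighbour could enter some of these values, since the libraries kept the strand but the counting is not stated to use it. In GENCODE 44, 19 of the 33 genes share exon bases with another gene, 17 with one on the opposite strand and 5 with one on the same strand. On the same strand, *CYP51A1* shares 68.2% and 67.8% of its exon bases with a pair of annotated genes that have no symbol, and *EBP* shares 36.4% with another such gene. On the opposite strand, the largest shared part was that of *HMGCS1*, with 2497 bases (37.7% of its exon bases) in a gene that has no symbol. *FDPS* shares 693 bases (18.6%) with *RUSC1-AS1*, which was at 8.68, or 0.164% of *FDPS*. *STARD4-AS1*, antisense to *STARD4*, had a mean normalized value of 117, which is 40.2% of that of *STARD4*, and the shared stretch is 124 bases. *CYP51A1-AS1* was at 19.5, or 1.71% of *CYP51A1*. *IDI2-AS1*, chosen like *RUSC1-AS1* after its value was seen, shares 643 bases with *IDI1* and was at 368, or 9.24% of *IDI1*. Other neighbours, also chosen after their values were seen, were higher than the gene they overlap. *TCP1*, opposite *ACAT2*, shares 454 bases (17.2% of the exon bases of *ACAT2*) and was at 21649, or 537% of *ACAT2*. *MMAB*, opposite *MVK*, shares 225 bases and was at 192% of *MVK*, and *AKAP9*, opposite *CYP51A1*, shares 108 bases and was at 153% of *CYP51A1*. On the same strand, *VPS51* shares 18 bases with *TM7SF2* and was at 370% of it, and *FEN1* shares 49 bases with *FADS2* and was at 146% of it. The part of shared reads in any level was not tested.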

How the data were processed

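The authors sequenced RNA from 12 samples as paired-end reads, aligned them to GRCh38.p7 with SeqManPro, quantified genes with ArrayStar and QSeq, and ran DESeq2 (version 1.40.1 in the submitters' processing notes, which list GRCh38 and GRCh37). The deposited signal is, for each gene, 1 average of the authors' size-factor-scaled values across the samples. The methods name RPKM as the input. Values that sum to 36.6 M are above the 0.445 M that RPKM would give here with MANE Select lengths, yet the value did not rise with that length across 12992 genes (Spearman rho -0.011), so whether the authors' values are already divided by length is not settled. The remaining columns hold the authors' own comparisons of each compound with DMSO (log2 fold change, its error, a statistic and p-values) and were not used. Without values per sample, no test between groups was made.

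Levels and percentiles were computed with pandas 2.3.3, and the percentile step was tested on simulated data. Lengths came from GENCODE 44 on GRCh38, matched by symbol, 914 of them through RefSeq synonyms, for 89.9% of symbols with a value of at least 10. Patches of GRCh38 share their chromosome coordinates. Samples were grouped by their titles. By rule, the genes named are the 33, antisense genes and pseudogenes named after them (antisense genes alone were found), and the 3 highest and 3 lowest per kilobase of the further list, of which 1 is not reported here. Markers of the line and overlapping neighbours named besides were chosen after their values were seen. Of the listed symbols, 23 had turned into dates or numbers and were not used by name. The genes and lists were chosen with earlier results of these data known. Alternatives were other lengths, other background genes, a shorter promoter window and the other tables.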

Additional observations from a re-analysis of the deposited data

How the results depend on the processing

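The deposited mean is pooled, so leaving out a replicate could not be computed. No paired analysis was possible because the only column used holds 1 mean over all samples and carries no replicate numbers. The background limited to genes with a RefSeq protein was not run, as no protein table was used here, and coding length was taken from GENCODE. MANE Select lengths and the protein-coding background were chosen after seeing the data. The median percentile of the 33 genes by deposited value was 81.1, and became 87.3 among all listed genes, 74.6 among genes of at least 100 and 77.9 among protein-coding genes of at least 10. It was identical in the AA263yne and AA263-5 tables.
In the order longest transcript, coding length and MANE Select, the median percentile per length was 77.7, 79.2 and 75.1. In the same order, the median level per kilobase was 886, 1737 and 1158 for the mevalonate steps, 529, 1963 and 702 for the squalene to cholesterol steps, 731, 2115 and 731 for the SREBP factors and their regulators, 581, 721 and 581 for sterol transport, and 537, 1947 and 839 for fatty acid synthesis. The log2 difference per length of *INSIG1* minus *INSIG2* was 4.67, 4.07 and 4.67, and that of *SREBF1* minus *SREBF2* was -2.11, -2.37 and -2.23. That of *FADS1* minus *FADS2* was 0.17 on median transcript length and 0.071 on the longest transcript, and turned to -0.32 on coding length and -0.64 on MANE Select. The construction of these scales, which divide the same value by another length, gives the change. Within the 150 bases before the start site, 18 of the 29 genes held a CCAAT box against 27.8% of all genes, 25 a GC box against 40.7%, 1 the sterol regulatory element against 0.696%, and 1 the palindrome against 0.853%. For this window the share among genes at 10 or more, which was higher for each motif in the whole promoter, was not taken.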
